A study of Mus musculus with 12 samples.

Results

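Il18, Il18r1, Il18rap, Il1r1, Il1rap, Il1rn, Casp1, Pycard and Gsdmd, 9 genes of the interleukin-18 (IL-18) and interleukin-1 (IL-1) pathway, were followed in mouse colonic organoids. They were 9 of the 48795 genes in the table and were found by gene symbol. The genes were chosen by their place in the pathway with the results of these libraries already known, so their own changes are given as a description, without p-values. The choice used no threshold. Organoids are epithelial structures grown from isolated colon crypts in a gel. They came from C57BL/6 mice labelled AhR deficient (KO) or from WT mice of the same background. AhR (aryl hydrocarbon receptor) turns on target genes when it binds dietary, microbial or industrial compounds. Differentiated organoids had spent 3 days in medium without Wnt-3A (ENR medium), and stem cell organoids were kept with R-spondin-1, Noggin, EGF and Wnt-3A (WENR medium). Each of the 4 combinations of genotype and condition had 3 libraries. How Ahr was inactivated, the age of the mice and the number of animals or cultures behind a group are not in the labels. The p-values therefore refer to the spread among libraries, which may be technical.

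IL-18 is made as an inactive precursor and is stored by epithelial cells of the gut. Inflammasome sensors such as NLRC4 and NLRP6 recruit the adaptor ASC (Pycard) and activate caspase-1 (Casp1), which cleaves the precursor and opens gasdermin D (Gsdmd), a membrane pore through which the cytokine leaves the cell. IL-18 signals through a receptor chain (Il18r1) and an accessory chain (Il18rap). IL-1 uses its own pair (Il1r1 and Il1rap), and the receptor antagonist (Il1rn) occupies Il1r1 without signalling.

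Between 25.1 and 99.0 M reads per library were assigned to genes, and values are counts normalized for library size. Epithelial markers were high throughout except Krt20, which had 33.4 to 61.1 in KO stem libraries, against 126 to 366 in WT stem libraries. Cd3e was at 0 in all 12 libraries. Ptprc, the pan-leukocyte gene, did not pass 5.97 and the 3 endothelial markers did not pass 19.1. The 8 immune markers summed to 1092 to 1702 in KO differentiated libraries, against 954 to 1182 in WT differentiated libraries, and to 4444 to 4596 in KO stem libraries, against 1707 to 3381 in WT stem libraries, nearly all of it Cd68 and Csf1r. Markers of a list for fibroblasts and muscle stood out in WT stem library 1 (Vim 13196, Col1a1 4788) and, far lower, in KO stem library 3 (Vim 356). Not all of the 7 did: Dcn was at 0 in both libraries, and Pdgfra was at 34.2 and 6.11. These markers are called fibroblast transcripts below, and the cells they came from were not tested. The summed level over the 7 markers was 28.6 to 578 in KO stem libraries, against 16.2 to 20254 in WT stem libraries. In differentiated libraries it was 66.3 to 83.0 in KO, against 31.1 to 70.9 in WT. The part of these transcripts in the results was not tested. The stem results for the members and for the called pathway genes are also given without WT stem library 1 and KO stem library 3. Ahr had more counts in KO than in WT libraries (ratio of means 1.55 in the differentiated and 1.48 in the stem condition). Reads summed over a gene do not test whether a part of it was deleted. Cyp1b1, a target gene of AhR, had 2.63% of the WT level in KO differentiated and 5.11% in KO stem organoids, and Nqo1, another target, 46.4% and 27.2%.

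The 250 bases before the start sites of 4 genes are shown, because Il18, Il18r1 and Il18rap were the members that changed most with differentiation and Il1rap was the member that fell. The sequences are from RefSeq (GRCm38.p6), 5′ to 3′ on the plus strand, at chr9:50554450-50554699 for Il18, chr1:40465302-40465551 for the first of 3 start sites of Il18r1, chr1:40515112-40515361 for Il18rap and chr16:26581455-26581704 for Il1rap. Capitals mark matches to the motifs named beneath them, on either strand.
Il18: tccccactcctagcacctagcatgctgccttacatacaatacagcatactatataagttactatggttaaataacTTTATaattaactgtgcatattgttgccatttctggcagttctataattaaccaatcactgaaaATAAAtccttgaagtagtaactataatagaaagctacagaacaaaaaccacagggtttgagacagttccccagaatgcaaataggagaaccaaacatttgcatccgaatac
Il18r1: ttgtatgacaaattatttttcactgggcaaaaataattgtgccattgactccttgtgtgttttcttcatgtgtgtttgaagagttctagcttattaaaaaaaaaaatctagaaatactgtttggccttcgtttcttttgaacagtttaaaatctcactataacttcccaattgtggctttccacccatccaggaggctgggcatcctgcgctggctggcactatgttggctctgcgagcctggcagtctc
Il18rap: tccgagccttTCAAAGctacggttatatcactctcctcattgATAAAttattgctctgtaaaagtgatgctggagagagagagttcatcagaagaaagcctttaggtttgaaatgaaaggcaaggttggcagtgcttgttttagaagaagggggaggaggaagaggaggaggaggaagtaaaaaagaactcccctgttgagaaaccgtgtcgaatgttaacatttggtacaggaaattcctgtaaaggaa
Il1rap: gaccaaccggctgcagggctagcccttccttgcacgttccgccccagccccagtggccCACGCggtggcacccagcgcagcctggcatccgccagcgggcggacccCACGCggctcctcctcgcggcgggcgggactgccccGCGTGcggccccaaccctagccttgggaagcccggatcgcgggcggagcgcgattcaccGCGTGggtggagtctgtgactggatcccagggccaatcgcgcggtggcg
The 5 motifs searched were the AhR-ARNT core GCGTG, the TCF/LEF core CTTTGA, the AP-1 motif TGANTCA, the STAT motif TTCNNNGAA and the CDX core TTTAT, CDX being transcription factors of intestinal epithelium. Il1rap held 4 matches to GCGTG, and Il18 held 2 to TTTAT. Il18rap held 1 to CTTTGA and 1 to TTTAT, and this window of Il18r1 held none of the 5. Of all 32851 RefSeq windows of this length, 28.2% held the AhR-ARNT core, 37.3% the CDX core, 13.8% the TCF/LEF core, 6.75% the AP-1 motif and 7.02% the STAT motif. Windows were found for the members other than Gsdmd, 13 in all, of which 3 held the AhR-ARNT core, 3 the CDX core and 1 each the TCF/LEF, AP-1 and STAT motifs. A match describes letters, not binding. The AP-1 match, in a window of Il1rn, overlapped a GCGTG match. The RefSeq start of Il18 lies upstream of the start of the gene in GENCODE, whose models are used for the positions given with each gene.

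Il18, the cytokine gene (ENSMUSG00000039217, chromosome 9, 50554827 to 50581840), was the member with the clearest loss in KO organoids, in both conditions. Differentiated KO libraries had 842, 952 and 1232 normalized counts, against 2261, 1842 and 1944 in differentiated WT libraries. Stem KO libraries had 69.5, 62.4 and 56.0, against 153, 104 and 105 in stem WT libraries. Every KO library lay under every WT library of its condition. The ratio of means was 0.50 in the differentiated condition (log2 change -1.01 ± 0.18, SE from a limma fit of all 12 libraries) and 0.518 in the stem condition (-0.92 ± 0.18). Without WT stem library 1 the stem difference was -0.74. Differentiation raised Il18 by a like factor in both genotypes, 16.1-fold in KO (log2 3.97 ± 0.18) and 16.7-fold in WT (4.07 ± 0.18). The difference between these responses was -0.09 ± 0.25. Il18 overlaps Bco2 on the opposite strand (mean 426 over the 12 libraries), and the use of strand in counting is not given in the sources used here.

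Casp1, the protease that matures IL-18 (ENSMUSG00000025888, chromosome 9, 5298517 to 5307265), showed the same order of groups as Il18. Differentiated KO libraries had 2663, 3982 and 4443 normalized counts, against 6253, 6099.7 and 7205 in differentiated WT libraries. Among stem organoids KO libraries had 1136, 1234 and 1331, against 1793, 2056 and 1872 in WT libraries. The genotypes did not overlap in either condition. The log2 change was -0.85 ± 0.16 in the differentiated and -0.63 ± 0.16 in the stem condition. The stem call was lost in 8 of the 12 fits that left out a library, with values between -0.69 and -0.57. Differentiation raised Casp1 3.00-fold in KO (log2 1.55 ± 0.16) and 3.42-fold in WT (1.77 ± 0.16).

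Pycard, the adaptor gene (ENSMUSG00000030793, chromosome 7, 127989708 to 127993867, minus strand), varied more between libraries. Differentiated KO libraries had 653, 1048 and 1490.2 normalized counts, against 1782, 1388 and 1585 in differentiated WT libraries, and these ranges overlapped. Stem KO libraries had 644, 572 and 836, against 897, 996 and 853 in stem WT libraries. The KO minus WT log2 values were -0.65 ± 0.24 and -0.43 ± 0.24, and neither passed the threshold. KO differentiated library 1 was the lowest of its group for Pycard, as it was for Il18, Casp1, Gsdmd and Il1rn. Without it the differentiated value for Pycard was -0.34.

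Gsdmd, the pore gene (ENSMUSG00000022575, chromosome 15, 75862327 to 75867408), had 7665, 10103 and 10930.0 normalized counts in differentiated KO libraries, against 14059, 14337 and 14280.1 in differentiated WT libraries. These groups did not overlap (log2 -0.59 ± 0.18). Stem KO libraries had 5960.4, 6724 and 6142, against 6055, 9664 and 10057 in stem WT libraries. WT stem library 1, the library with fibroblast transcripts, lay within the KO range. The stem log2 value was -0.42 ± 0.18 with it and -0.65 without it, and only the value without it passed the threshold.

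**Figure D1:**
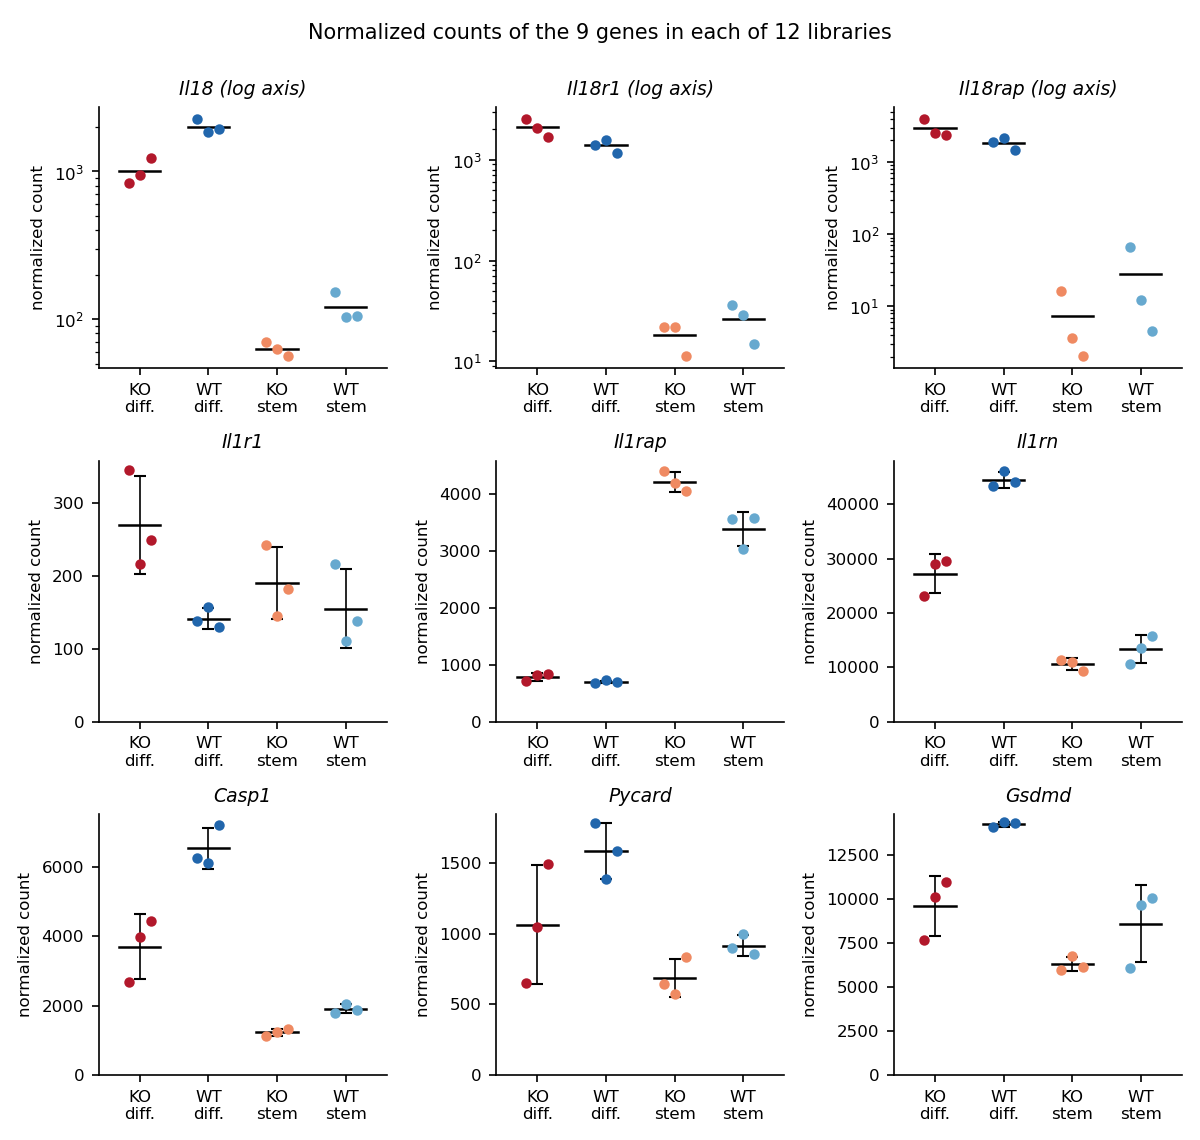
Normalized counts of the 9 genes in the 12 libraries (points), for KO and WT organoids in the differentiated (diff.) and stem conditions. Bars are group means, with the SD (n = 3) on the linear axes; Il18, Il18r1 and Il18rap are on log axes without SD. Il18, Casp1 and Il1rn lie lower in KO than in WT differentiated organoids, and Il1rap is the gene that is highest in the stem condition.

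The IL-18 receptor genes were close to silent in the stem condition and abundant after differentiation. Il18r1 (ENSMUSG00000026070, chromosome 1, 40465552 to 40500854) had 2528, 2082 and 1679.8 normalized counts in differentiated KO libraries, against 1402, 1585 and 1177 in differentiated WT libraries. It had 22.1, 22.0 and 11.2 in stem KO libraries, against 35.9, 28.8 and 15.0 in stem WT libraries. The rise with differentiation was 114-fold in KO (log2 6.79 ± 0.32) and 52.3-fold in WT (5.73 ± 0.32). KO minus WT was 0.59 ± 0.32 in the differentiated condition and -0.48 ± 0.32 in the stem condition. Neither passed the threshold, although every differentiated KO library was above every WT one. The difference between the responses was 1.07 ± 0.46 and was not called.

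Il18rap, the accessory chain (ENSMUSG00000026068, chromosome 1, 40515362 to 40551705), had 3919.6, 2483 and 2332 normalized counts in differentiated KO libraries, against 1913, 2146 and 1488 in differentiated WT libraries. Its stem values rested on few reads, 30, 5 and 2 in KO libraries (16.2, 3.67 and 2.04 normalized counts), against 41, 11 and 4 in WT libraries (66.8, 12.2 and 4.62). WT stem library 1 was thus far above the rest of its group. The log2 rise with differentiation was 8.83 ± 0.80 in KO and 6.74 ± 0.80 in WT, and without WT stem library 1 the WT value was 7.73. KO minus WT was 0.63 ± 0.80 in the differentiated condition and -1.46 ± 0.80 in the stem condition (-0.46 without WT stem library 1). Neither passed the threshold. Every differentiated KO library was above every differentiated WT library, on 655 to 5145 reads, and the SE, which is estimated over all 4 groups together, includes the spread of the stem libraries with few reads. For the stem condition the reads were too few to show a direction.

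Per kilobase of exon, Il18rap and Il18r1 were level in differentiated organoids. Il18rap had 0.851 to 1.11 times the value of Il18r1 in the KO libraries and 0.902 to 0.973 times in the WT libraries. The pair lies side by side on chromosome 1 with other receptor genes of the family. Il1r1 (40225080 to 40317257) is in the same cluster and was expressed, whereas Il1r2, a decoy for IL-1, Il1rl2, the IL-36 receptor, and Il1rl1, the IL-33 receptor, did not pass the filter of 10 normalized counts in 3 libraries. Il1rl1 averaged 7.47 in KO and 5.0 in WT differentiated libraries.

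Il1r1, the signalling receptor of IL-1 (ENSMUSG00000026072), was a low-level gene and the member that was called higher in KO differentiated organoids. KO differentiated libraries had 345, 216 and 248 normalized counts, against 137, 156 and 129 in WT differentiated libraries, with no overlap (log2 0.91 ± 0.26). Stem KO libraries had 242, 145 and 182, against 215, 111 and 137 in WT libraries, and the ranges overlapped (0.32 ± 0.26). Differentiated minus stem was 0.51 ± 0.26 in KO and -0.08 ± 0.26 in WT. Gm38070, an unclassified transcript on the same strand, overlaps Il1r1 and averaged 87.8.

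Il1rap, the accessory chain of the IL-1, IL-33 and IL-36 receptors (ENSMUSG00000022514, chromosome 16, 26581704 to 26730117), was the member called lower with differentiation. It had 709, 823 and 839 normalized counts in differentiated KO libraries, against 676, 723 and 690.5 in differentiated WT libraries. In the stem condition KO libraries had 4396, 4185 and 4048, against 3553, 3035 and 3569.6 in WT libraries. It fell with differentiation, to 0.188 of the stem level in KO (log2 -2.41 ± 0.08) and to 0.206 in WT (-2.28 ± 0.08). KO minus WT was 0.32 ± 0.08 in the stem condition and 0.18 ± 0.08 in the differentiated condition. The stem call was lost in 10 of the 12 fits that left out a library, while its value stayed between 0.24 and 0.36. Per kilobase, Il1rap was 10.2 to 16.2 times Il1r1 in KO stem libraries, against 9.25 to 15.3 times in WT stem libraries. In the differentiated condition that ratio was 1.15 to 2.14 in KO libraries, against 2.59 to 2.99 in WT libraries.

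Il1rn, the receptor antagonist gene (ENSMUSG00000026981, chromosome 2, 24336853 to 24351494), was the most abundant member in differentiated organoids. Differentiated KO libraries had 23059.5, 29034 and 29626 normalized counts, against 43384, 46216 and 44126 in differentiated WT libraries, a ratio of means of 0.611 (log2 -0.72 ± 0.14). Stem KO libraries had 11413, 11000.1 and 9322, against 10571, 13639.7 and 15801 in stem WT libraries. WT stem library 1 lay among the KO libraries, and the stem value was -0.32 ± 0.14 with it and -0.48 without it, when it passed the threshold. Differentiation raised Il1rn 2.58-fold in KO (1.36 ± 0.14) and 3.34-fold in WT (1.76 ± 0.14).

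Across the 9 members, all of which passed the filter on low values, the calls of the fit over 14856 genes are counted at an adjusted p under 0.05 (Benjamini-Hochberg). In KO against WT differentiated organoids 1 member was called higher (Il1r1) and 4 lower (Il18, Casp1, Il1rn, Gsdmd), where 13.8% of all genes were called higher and 13.9% lower. In KO against WT stem organoids 1 was higher (Il1rap) and 2 lower (Il18, Casp1), where the background was 3.48% higher and 3.09% lower. With differentiation 6 members rose and 1 fell in KO (background 34.1% and 33.6%), and 7 rose and 1 fell in WT (36.3% and 35.9%). No member was called for a difference between the genotypes' responses, where 5.12% of all genes were called positive and 3.58% negative. The single member with an unadjusted p under 0.05 in limma was Il18r1, where 4037 of all 14856 genes had one. By edgeR 0 members were called as well. Nothing is read from these counts, since the members were not chosen independently of them. The median KO minus WT value of the 9 was -0.59 in the differentiated condition and -0.43 in the stem condition, beside 0.02 and -0.04 over all genes tested.

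The counts for KO against WT moved with single libraries, and the shares of all genes called in those fits were not counted. In the differentiated condition the counts were 3 to 6 members, with 3 without KO differentiated library 1, WT differentiated library 1 or WT differentiated library 3. In the stem condition they were 1 to 5, with 5 without WT stem library 1 and 1 without any of 8 other libraries: the remaining WT stem libraries, the KO stem libraries, KO differentiated library 2 and WT differentiated libraries 1 and 2. Without WT stem library 1 and KO stem library 3 together, Il18 (-0.66), Casp1 (-0.73), Gsdmd (-0.64) and Il1rap (0.38) were called in the stem condition. The other members had values of -0.60 for Pycard, -0.39 for Il1rn, 0.60 for Il1r1, 0.08 for Il18r1 and 0.06 for Il18rap, and the sign of the last 2 thus differed from that over all libraries. The Il18 calls held in all 12 fits in both conditions, and those of Casp1 and Il1rn in the differentiated condition likewise. The differentiated calls of Gsdmd and Il1r1 held in 8 and 9 of the 12.

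**Figure D2:**
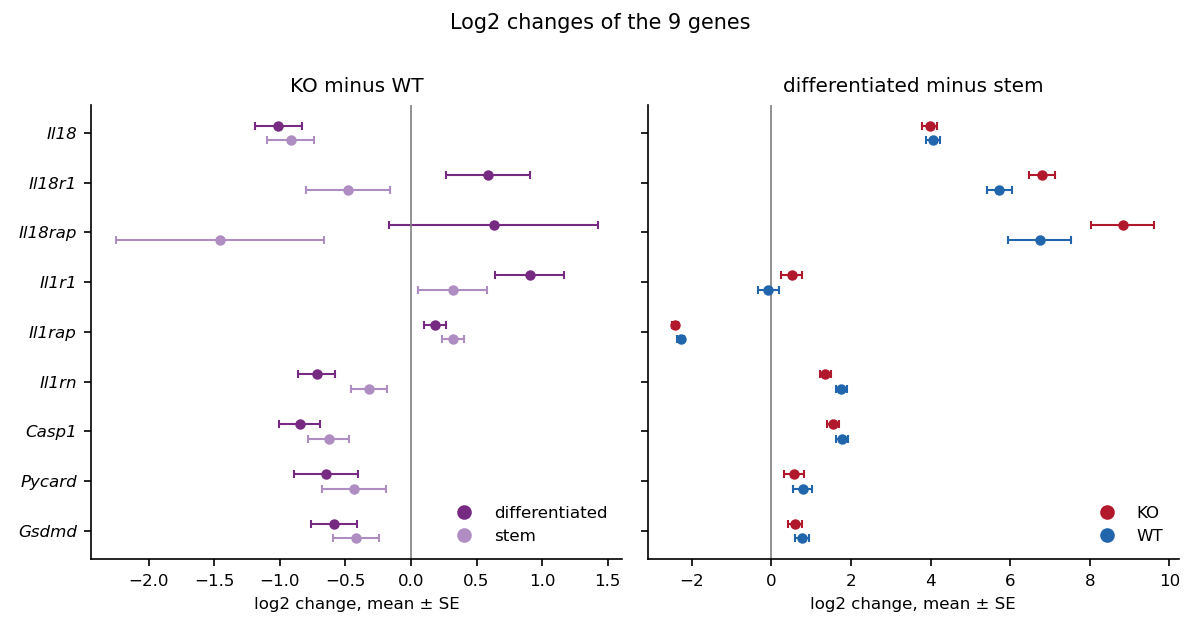
Log2 changes ± SE of the 9 genes from the limma fit of 12 libraries: KO minus WT (left, differentiated and stem conditions) and differentiated minus stem (right, KO and WT). Il18, Casp1, Il1rn, Gsdmd and Pycard lie under 0 in both conditions on the left, and Il18, Il18r1 and Il18rap have the largest rises on the right.

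The fall of Il18 and Casp1 in KO stood beside lower levels of Krt20, a keratin of mature surface colonocytes. Krt20 had 3248, 9106 and 8947 normalized counts in differentiated KO libraries, against 30197, 22425 and 28678 in differentiated WT libraries, 26.2% of the WT mean. In the stem condition the KO mean was 21.1% of the WT mean. The 7 epithelial markers summed to 861243 to 919778 in differentiated KO libraries, against 1059653 to 1118138 in differentiated WT libraries, with Krt8 the largest part. The markers did not move alike, and Krt20 differed most. In the differentiated condition KO minus WT was -0.66 for Cdx2, -0.45 for Vil1 and -0.35 for Epcam and for Krt8. It was -0.09 for Cdh1 and -0.04 for Krt18, which had -0.09 and 0.12 in the stem condition. The part of the state of the epithelium in these results was not tested. In bulk RNA, fewer cells of a type and less RNA per cell cannot be told apart.

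Levels of the members can be compared per kilobase of exon, and their order differed between the conditions. In differentiated organoids Il1rn came first with 4921 in KO and 8053 in WT, then Gsdmd with 4024 in KO and 5985 in WT, then Casp1 with 2469 in KO and 4355 in WT. The KO ranges of Il1rn and Gsdmd overlapped. Il18 came next, with 978 in KO and 1955 in WT. The receptor chains Il18r1 and Il18rap followed in KO with 435 and 431, above Pycard with 280, and these neighbours overlapped. In WT Pycard, with 417, came before Il18r1 and Il18rap, with 288 and 274, and did not overlap them. Il1rap and Il1r1 were last, with 69.6 and 42.4 in KO, and 61.3 and 22.2 in WT.

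In stem organoids the order was Gsdmd, Il1rn, Casp1, Il1rap, Pycard, Il18, Il1r1, Il18r1 and Il18rap in both genotypes. Gsdmd had 2640.1 per kilobase in KO and 3615 in WT, and Il18rap 1.08 in KO and 4.13 in WT. Il18r1 and Il18rap overlapped in both genotypes, and Gsdmd and Il1rn overlapped in WT. The other neighbours did not.

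**Figure D3:**
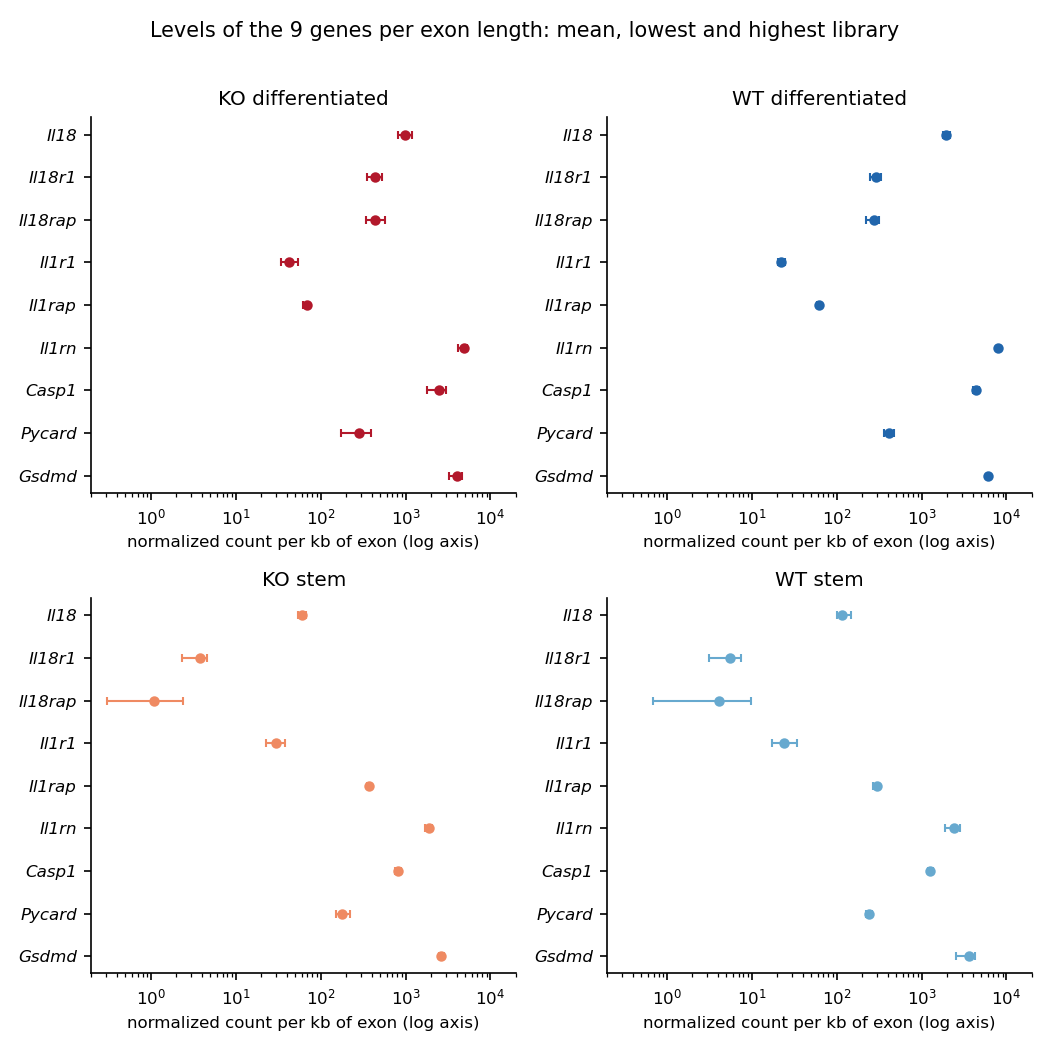
Normalized counts per kilobase of exon (log axis) of the 9 genes in the 4 groups: points are group means, and bars span the lowest and highest of 3 libraries. Il18, Il18r1 and Il18rap sit far higher in the upper, differentiated panels, and Il1rap sits lower there.

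The genes most like 4 of the members across the 12 libraries were looked up among 11566 protein-coding genes with a mean of at least 50, by Pearson's r of log2 values. The libraries of both conditions lie far apart, so each r mostly reflects that gap. Il18 was closest to Cdc42ep5 (r = 0.998), Abr (0.998) and Vasp (0.997). Casp1 was closest to Hnf4a (0.998), a transcription factor of gut and liver epithelium, Fgl2 (0.995) and Itih5 (0.995). Hnf4a averaged 29395 in KO and 50092 in WT differentiated libraries. Among the genes closest to Gsdmd were Ms4a8a (0.991) and Tnfsf13b (0.984), the B-cell survival factor BAFF. Il1rn was closest to Slc25a24 (0.994), Mall (0.993) and Xk (0.993).

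The wider pathway was listed as 60 further genes in 5 roles, of which 46 passed the filter. As with the members, these lists were drawn up with results of these libraries known, so their counts are a description and their genes' p-values are no independent support. In KO against WT differentiated organoids 3 of the 46 rose and 14 fell, where 13.8% of all genes rose and 13.9% fell. In stem organoids 1 rose and 5 fell (3.48% and 3.09% of all genes). With differentiation 27 rose and 10 fell in KO (34.1% and 33.6% of all genes), and 29 rose and 7 fell in WT (36.3% and 35.9%). The median KO minus WT value of the list was -0.16 in the differentiated and -0.05 in the stem condition. The differentiated count was 11 to 24 when a library was left out, with 11 without KO differentiated library 1 or WT differentiated library 1. The stem count was 2 to 11, rising to 11 when WT stem library 1 was dropped and coming to 3 for KO stem library 1 and 2 for WT stem library 2. The share of all genes called in these fits was not counted, so the shifts are not read as particular to the list.

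Of 12 inflammasome sensors tested, 8 fell in KO differentiated organoids, where 13.9% of all genes fell. KO differentiated library 1 was the lowest of its group for each of these 8, as it was for Krt20. Fewer pathway genes were called without that library, and how many of the 8 sensors stayed called is not given here. The median of the 12 was -0.74, and edgeR called 8 as well. Among the 12, Mefv passed the filter only through WT differentiated libraries, so its lower KO value in this median was partly fixed by it. Naip1, which recognises bacterial secretion needles for NLRC4, had 6816, 11499 and 10572 normalized counts in KO differentiated libraries, against 21055, 21223 and 21269 in WT differentiated libraries (log2 -1.17 ± 0.17, limma adjusted p = 0.00116). Nlrc4, the sensor that NAIP proteins activate, had 2117, 2556 and 2704, against 3425, 3497 and 3477 (-0.50 ± 0.11, adjusted p = 0.00681). Nlrp6, a sensor of gut epithelium, had 655, 1394 and 1873 in KO differentiated libraries, against 4309, 3225 and 4379 in WT differentiated libraries (-1.72 ± 0.41, adjusted p = 0.0116). None of these 3 genes overlapped between the genotypes. How many of all genes did not overlap was not counted, so nothing is read from this.

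These 3 sensors were also called lower in KO stem organoids, the only ones of the 12 by limma, where 3.09% of all genes fell. By edgeR 2 were called, Nlrc4 and Nlrp6. Naip1 had 2351, 2412 and 1859 normalized counts in KO stem libraries, against 3482, 3124 and 3652 in WT stem libraries (-0.64 ± 0.17, adjusted p = 0.0443). Nlrc4 had 380.3, 418 and 458, against 624, 772 and 684 (-0.73 ± 0.11, adjusted p = 0.00276). Nlrp6 had 113, 81.5 and 174, against 365, 823 and 795 (-2.40 ± 0.41, adjusted p = 0.00673). The stem call of Naip1 was lost in 10 of the 12 fits that left out a library. Without WT stem library 1 the stem values were -0.62 for Naip1, -0.80 for Nlrc4 and -2.78 for Nlrp6. Without KO stem library 3 as well they were -0.50, -0.86 and -3.06, and of the 3 genes Naip1 was not called in either fit.

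**Figure D4:**
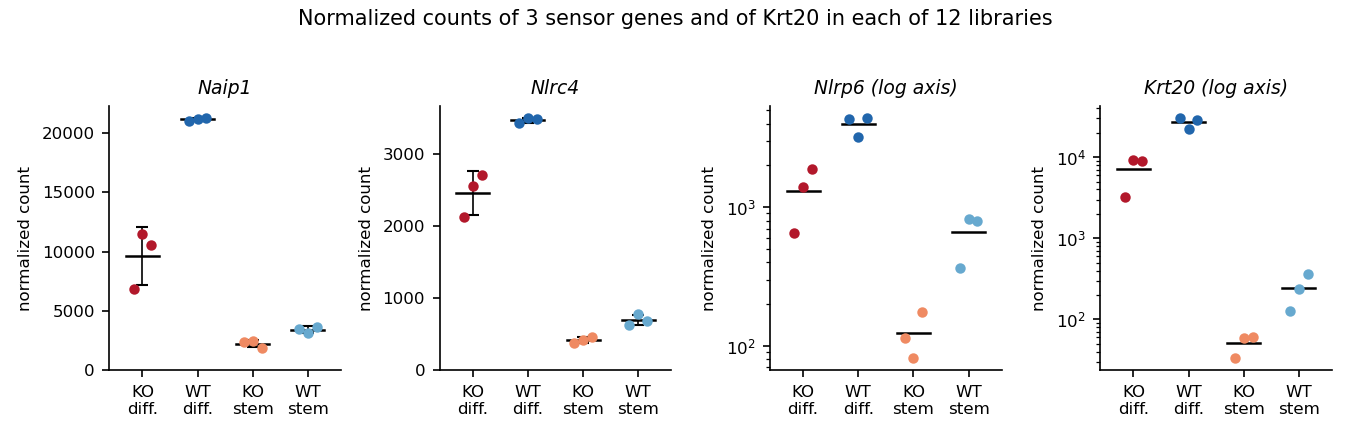
Normalized counts of Naip1, Nlrc4, Nlrp6 and Krt20 in the 12 libraries (points), for KO and WT organoids in the differentiated (diff.) and stem conditions. Bars are group means, with the SD (n = 3) on the linear axes of Naip1 and Nlrc4; Nlrp6 and Krt20 are on log axes. KO libraries lie lower than WT libraries of the same condition for all 4 genes.

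The other falls in KO differentiated organoids were in Naip2 (-0.67 ± 0.18, adjusted p = 0.0178), Naip5 (-0.69 ± 0.20, adjusted p = 0.0272), Naip6 (-0.68 ± 0.19, adjusted p = 0.0223), Nek7 (-0.38 ± 0.05, adjusted p = 5.89e-04) and Nlrp1b (-1.65 ± 0.53, adjusted p = 0.0388). NAIP5 and NAIP6 recognise flagellin, and NEK7 is a partner of NLRP3. The Naip genes, Naip1 among them, are related copies that share sequence, so reads may have been split between them and their single values are uncertain. Nlrp1b was all but absent from stem libraries (0.734 to 2.04 in KO, 0 to 1.11 in WT) and had 20.6, 49.2 and 100.2 in KO differentiated libraries, against 182, 117 and 157 in WT differentiated libraries. Aim2, the DNA sensor, gave nearly equal values in both genotypes, 3577, 3373 and 3339 in KO differentiated libraries, against 3426, 3513 and 3666 in WT differentiated libraries (-0.04 ± 0.05, adjusted p = 0.562). Nlrp3 had 1 read in 1 library and 0 in the rest.

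With differentiation all 12 sensors tested rose in WT and 10 rose in KO, where 36.3% of all genes rose in WT and 34.1% in KO. Nlrp1b passed the filter only through differentiated libraries, and Mefv only through those of WT, so their rise was partly fixed by it. For Mefv the lower level in KO than in WT differentiated libraries was partly fixed as well. The sensors not called higher with differentiation in KO were Naip2 (0.33 ± 0.18, adjusted p = 0.121) and Naip6 (-0.33 ± 0.19, adjusted p = 0.147). Their interaction values were -0.59 ± 0.25 (adjusted p = 0.16) for Naip2 and -0.88 ± 0.27 (adjusted p = 0.0652) for Naip6. A difference between the genotypes' responses to differentiation was thus not shown for either. Nlrp9b rose in KO (2.63 ± 0.52, adjusted p = 8.46e-04) and in WT (3.63 ± 0.52, adjusted p = 6.22e-05), and so did Nlrp10 (1.58 ± 0.37 in KO, 2.20 ± 0.37 in WT). Mefv, the gene of the sensor pyrin, stayed low even after differentiation, with 3.41 to 7.48 in KO libraries, against 13.6 to 22.7 in WT libraries.

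Among ligands, Il33, a nuclear alarmin, was the one that rose in KO stem organoids. It had 8653, 7156 and 5805 normalized counts in KO stem libraries, against 4805, 3859.5 and 4649 in WT stem libraries (0.69 ± 0.18, adjusted p = 0.0449). This call was lost in 6 of the 12 fits that left out a library. The value was 0.75 without WT stem library 1 and 0.89 without KO stem library 3 as well, and it was called in both. Il33 fell with differentiation in KO (-1.58 ± 0.18, adjusted p = 1.23e-05) and in WT (-1.28 ± 0.18, adjusted p = 5.27e-05). Il1a was near 0 in stem libraries and had 174, 220.3 and 187 in KO differentiated libraries, against 169, 208 and 134 in WT differentiated libraries (0.20 ± 0.43, adjusted p = 0.762). Il1b, the classical substrate of caspase-1, had 1 read in 1 library and 0 in the others.

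Of the receptors and decoys, Sigirr, an inhibitory receptor of the family, fell in KO differentiated organoids (-0.25 ± 0.06, adjusted p = 0.0157). Il18bp, the secreted IL-18 binding protein, had 39.6, 31.0 and 50.4 normalized counts in KO differentiated libraries, against 56.5, 49.0 and 52.2 in WT differentiated libraries (-0.40 ± 0.20, adjusted p = 0.154). Stem libraries had 86.2, 85.1 and 77.4 in KO, against 44.0, 56.5 and 50.8 in WT (0.71 ± 0.20, adjusted p = 0.0548), and the difference was 0.62 without WT stem library 1 and 0.67 without KO stem library 3 as well.

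Of 10 caspase and pore genes, 5 rose and 5 fell with differentiation in each genotype, where 34.1% of all genes rose and 33.6% fell in KO, and 36.3% rose and 35.9% fell in WT. Casp4, Casp8, Casp12 and Gsdme were among those that rose, and Ninj1, a gene of membrane rupture, fell together with Gsdmc, Gsdmc2, Gsdmc3 and Gsdmc4. The Gsdmc copies share sequence and their single values are uncertain. Gsdmc2 averaged 9602 in KO differentiated libraries, against 67214 in KO stem libraries (-2.84 ± 0.25, adjusted p = 1.63e-06). In WT it averaged 11609.7 in differentiated libraries, against 106082 in stem libraries (-3.16 ± 0.25, adjusted p = 4.63e-07). Gsdmd thus rose (0.59 ± 0.18 in KO, 0.76 ± 0.18 in WT) while the Gsdmc genes fell.

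In KO against WT differentiated organoids Gsdme fell (-1.20 ± 0.30, adjusted p = 0.0136) and Ninj1 rose (0.46 ± 0.09, adjusted p = 0.00434). Casp4, the caspase of the non-canonical inflammasome, had 1328, 1364 and 1451 normalized counts in KO differentiated libraries, against 1424, 1326 and 1365 in WT differentiated libraries (0.01 ± 0.15, adjusted p = 0.972). None of the 10 was called in KO against WT stem organoids by limma or edgeR, where limma called 3.48% of all genes higher and 3.09% lower. At an unadjusted p under 0.05 in limma were 3 of the 10, beside 3658 of all 14856 genes. Without WT stem library 1 Casp4 (-0.48), Casp8 (-0.31), Gsdmc2 (-0.88) and Gsdmc3 (-1.01) were called lower in KO stem organoids. The share of all genes called in that fit was not counted.

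Of 19 signalling genes downstream of the receptors, 2 rose and 3 fell in KO differentiated organoids, shares close to those of all genes (13.8% and 13.9%). Irak3, a brake on IL-1 and Toll-like receptor signalling, had 131, 124 and 77.0 normalized counts in KO differentiated libraries, against 31.3, 49.0 and 20.4 in WT differentiated libraries (1.74 ± 0.30, adjusted p = 0.00267). Rela, a subunit of NF-kappaB, also rose (0.36 ± 0.08, adjusted p = 0.00658). The kinase genes Irak4 (-0.38 ± 0.07, adjusted p = 0.00326) and Chuk (-0.33 ± 0.07, adjusted p = 0.00725) and the adaptor gene Tab2 (-0.27 ± 0.09, adjusted p = 0.0466) fell. In stem organoids Nfkbiz (-0.52 ± 0.10, adjusted p = 0.0123) and Tnfaip3 (-0.38 ± 0.08, adjusted p = 0.0202), both feedback genes of NF-kappaB, fell in KO. Without WT stem library 1 they had -0.50 and -0.41, and without KO stem library 3 as well -0.50 and -0.36, called in each. Myd88, the adaptor shared by the receptors, was not called in any contrast, nor was Tollip, an inhibitor of IRAK signalling.

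With differentiation 11 of the 19 signalling genes rose in each genotype, where 34.1% of all genes rose in KO and 36.3% in WT. The feedback genes Tnfaip3 (2.22 ± 0.08 in KO, 1.74 ± 0.08 in WT) and Nfkbiz (1.89 ± 0.10 in KO, 1.54 ± 0.10 in WT) rose most. Nfkbia, which encodes an inhibitor of NF-kappaB, rose by 0.93 ± 0.09 in KO and 0.50 ± 0.09 in WT. Rela, Nfkb1, Ikbkb, Ikbkg, Irak4, Tab1 and Tab3 also rose in both genotypes, by 0.26 to 0.87 in KO and by 0.29 to 0.77 in WT. Map3k7, the kinase TAK1, was called in KO (0.19 ± 0.06, adjusted p = 0.02) and had 0.10 ± 0.06 in WT, while Tab2 was called in WT (0.29 ± 0.09, adjusted p = 0.0132) and had 0.07 ± 0.09 in KO. Irak1, a kinase of the receptor complex, fell in both (-0.39 ± 0.06 in KO, -0.49 ± 0.06 in WT), and Chuk fell in KO (-0.33 ± 0.07, adjusted p = 0.00175) with -0.05 ± 0.07 in WT. Of these differences between the genotypes, the interaction was called for Tnfaip3 and Irak4 only.

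**Figure D5:**
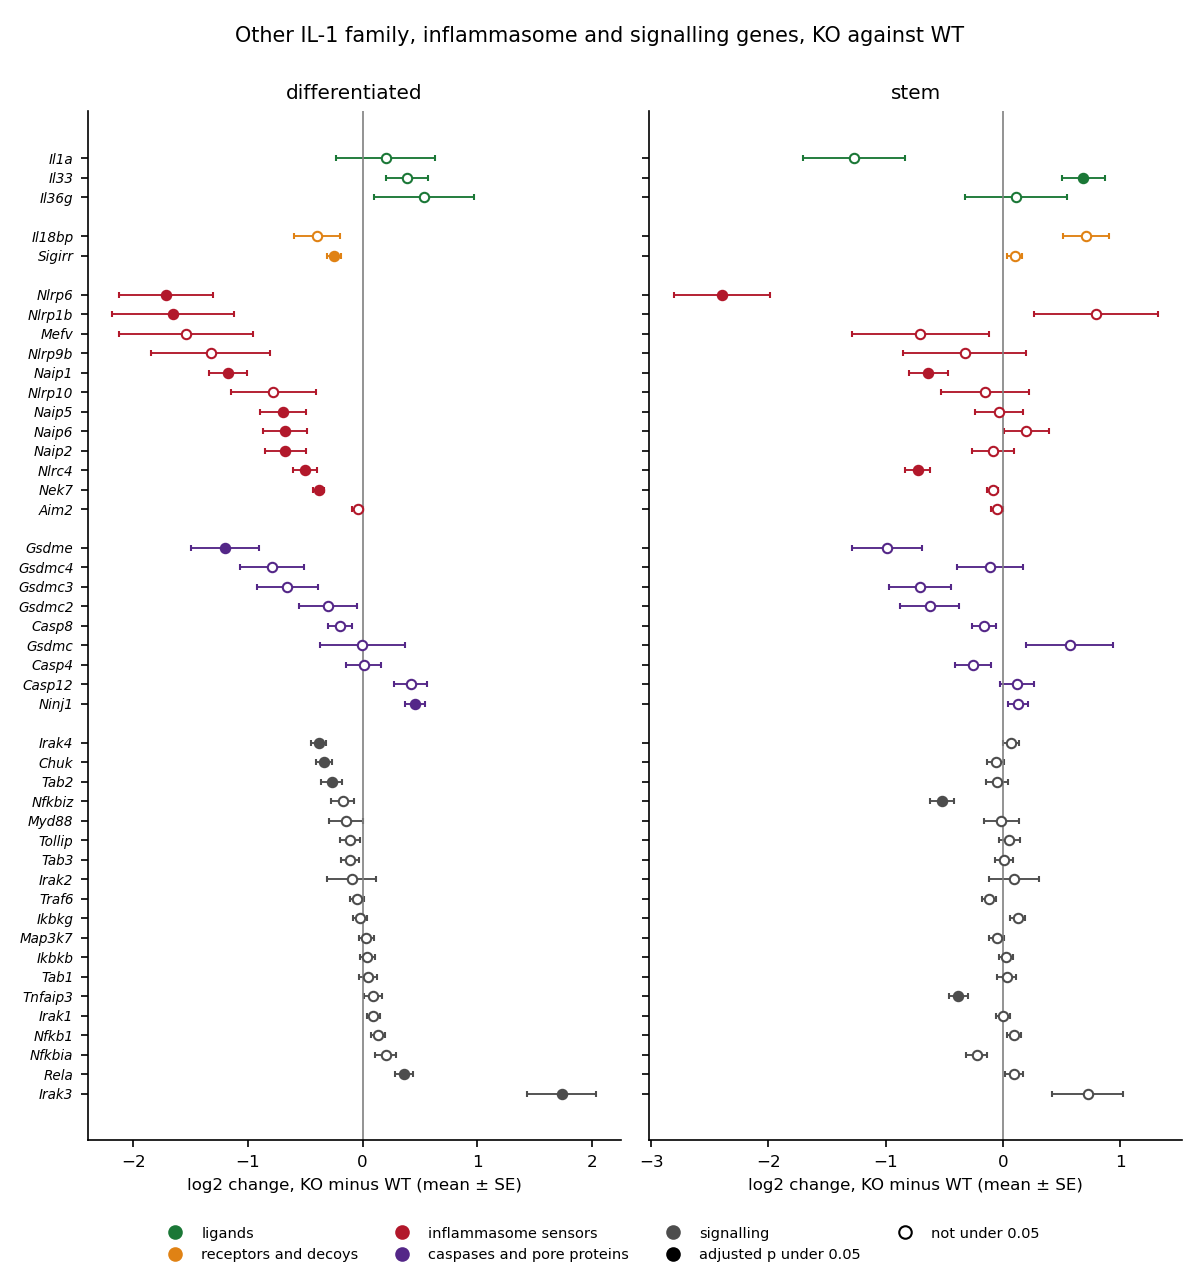
Log2 changes ± SE, KO minus WT, of 45 of the further pathway genes tested, in differentiated (left) and stem (right) organoids, coloured by role and sorted within a role by the differentiated value. Filled points have an adjusted p under 0.05: 16 genes on the left, 8 of them sensors that lie under 0, and 6 genes on the right.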

How the data were processed

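The authors sequenced 12 total RNA libraries from colonic organoids of mice. Per the submitters' processing notes, GRCm38, Bowtie2, RSEM 1.2.11 and DESeq2 1.18.1 were used. The deposited table gives a signal per gene and library, counts divided by library size factors. Whole reads were recovered by dividing each library by its smallest step: 100% of values came out whole within 0.05. Genes with at least 10 normalized counts in at least 3 libraries were tested (14856). limma 3.58.1 (R 4.3.3) was fitted to log2(normalized count + 1) over all 12 libraries with a mean for each of the 4 groups and a trended variance prior, two-sided, with Benjamini-Hochberg adjustment over all genes tested at 0.05. Fold changes of low genes are understated on this scale. The edgeR 4.0.16 quasi-likelihood test on the recovered reads was an alternative. On these reads it called 3, 6, 8, 8 and 0 of the 9 members in the contrasts KO against WT stem, KO against WT differentiated, differentiated against stem in WT and in KO, and the difference between these. Of all 14856 genes it called 943, 4092, 10653, 10120 and 1220 in the same contrasts. Gene models were GENCODE vM21, which matched 99.3% of identifiers. The members and lists were chosen with earlier results of these data known. Named were all 9 members, pathway genes called in any contrast, the 2 most abundant of each role, the 3 genes most like each of 4 members, and genotype and cell type markers. Myd88, Il1b, Nlrp3 and the unexpressed receptor genes were named after their values were seen. Some genes that met the rule are not reported here. Test scripts were first run on simulated counts. Other filters, pseudocounts, scalings and left-out libraries were tried as alternatives.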

Additional observations from a re-analysis of the deposited data

Results flagged for a closer look

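The interaction term of the limma fit over all 12 libraries was called for 5 of the 46 further pathway genes tested. Of these, 1 was positive and 4 were negative (2.17% and 8.70% of the 46), beside 5.12% and 3.58% of all genes tested. The 5 genes are described singly, and nothing is read from their count. Values are normalized counts, and the interaction is the log2 change with differentiation in KO minus that in WT, adjusted over all genes tested.

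Irak4, a kinase of IL-1 and Toll-like receptor signalling, had 2142, 2507 and 2492 in KO differentiated libraries, against 3274, 3006 and 3021 in WT differentiated libraries. In the stem condition it had 1933, 1874 and 1905 in KO libraries, against 1746, 1818 and 1893 in WT libraries. Its interaction was -0.45 ± 0.10 (adjusted p = 0.022). The call held in 8 of the 12 fits that left out a library.

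Il18bp, which neutralises secreted IL-18, had an interaction of -1.11 ± 0.28 (adjusted p = 0.035). KO organoids had the lower mean in the differentiated condition (40.4, against 52.6 in WT) and the higher mean in the stem condition (82.9, against 50.4 in WT). The call held in 4 of 12 such fits.

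Sigirr, an inhibitory receptor, had 1353, 1434 and 1542 in KO differentiated libraries, against 1781, 1679 and 1681 in WT differentiated libraries, and 1933, 1792 and 1871 in KO stem libraries, against 1673, 1798 and 1755 in WT stem libraries. Its interaction was -0.35 ± 0.09 (adjusted p = 0.0393), and the call held in 2 of 12 such fits. Nek7, a partner of NLRP3, had an interaction of -0.29 ± 0.07 (adjusted p = 0.0264), which held in 4 of 12.

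Tnfaip3, a feedback inhibitor of NF-kappaB, had the opposite sign. It had 7035, 5817 and 5689.6 in KO differentiated libraries, against 5826, 5842 and 5649 in WT differentiated libraries, and 1347, 1389 and 1236 in KO stem libraries, against 1653, 1822 and 1698 in WT stem libraries. Its interaction was 0.47 ± 0.12 (adjusted p = 0.0319), and the call held in 5 of 12 such fits. None of these calls held in every fit.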

How the results depend on the processing

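No called result changed direction under the alternatives run. Among members, calls in KO against WT stem organoids (3) were 1 without the filter, 1 in a fit of only the groups compared and 1 to 5 when a library was left out, with 5 without WT stem library 1. Calls in the differentiated condition (5) were 3 to 6, those with differentiation in WT (8) 8 to 8 and in KO (7) 7 to 8, and those for the difference between responses (0) 0 to 1, with 1 without WT stem library 3. Among the 46 further pathway genes, stem calls (6) were 2 in a fit of only the groups compared and 2 to 11 when a library was left out. Differentiated calls (17) were 11 to 24, with 24 without WT stem library 1, those with differentiation in WT (36) 35 to 37 and in KO (37) 35 to 40. Interaction calls (5) were 1 without the filter and 0 to 7 when a library was left out, with 0 without KO stem library 1, KO stem library 2, WT differentiated library 1 or WT differentiated library 3. Leaving out both libraries with fibroblast transcripts, chosen after seeing the data, gave 4 and 5 members called in KO against WT stem and differentiated organoids, and 9 and 23 pathway genes. The shares of all genes called in the fits with libraries left out were not counted. Same-numbered libraries of a genotype deviated together with correlations of 0.0552 to 0.286, against -0.211 to 0.0111 for libraries of a genotype with different numbers. These ranges did not overlap, so same-numbered libraries may share a source, which the labels do not give. The main fit did not pair the samples, and its SE and calls may differ from those of a paired fit. With a replicate block, which joins equal numbers across both genotypes, members called for the interaction were 1 (Il18r1) and pathway genes 11. Members called with differentiation in KO were 9 with that block. The interaction call of Il18r1 thus depended on how the numbers were treated. Depth limits the stem values of Il18rap, where 4 of 6 libraries had at most 11 reads. The cause of these changes was not tested.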
